A study of Mus musculus with 6 samples.

Results

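Chemokines are small secreted or membrane-bound proteins that guide leukocytes, and their receptors are G protein-coupled receptors carried mostly by those leukocytes. The family was taken from the liver gene table by name, as every row whose symbol begins with Ccl, Cxcl, Ccr or Cxcr and a number, together with Cx3cl1 and Cx3cr1. This gave 56 of the 23224 rows, 37 ligands and 19 receptors. RNA-seq of whole liver was compared between mice lacking PKM2, the M2 form of pyruvate kinase (PKM2 KO, 3 livers), and wild-type mice (WT, 3 livers). All mice were 35 weeks old and of mixed C57BL/6J and 129SvJ origin, and each liver came from its own mouse. The series title calls the loss germline, so it was not limited to 1 cell type. The allele is not named in the labels, nor is it said whether a liver carried a tumour.

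In the liver, chemokines are made by hepatocytes, Kupffer cells, endothelium, stellate cells and bile duct cells. Some, such as CXCL12, are made constantly, and others, such as CXCL1, CXCL9 and CXCL10, are switched on by inflammatory cytokines through NF-kB or interferon-activated factors. CXC ligands with a glutamate-leucine-arginine motif attract neutrophils through CXCR2, CC ligands mostly attract monocytes, macrophages, eosinophils and lymphocytes, and the CX3C ligand fractalkine (CX3CL1) binds CX3CR1. The receptors turn ligand binding into directed movement through inhibitory G proteins.

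The libraries held 27727048 to 33756104 expected counts in PKM2 KO livers and 27795400 to 36125711 in WT livers. Expected counts are RSEM's estimates of the reads per gene, and levels are given below as counts per 1000000 (CPM) after TMM scaling between libraries. The targeted gene, listed as Pkm2 and counting PKM1 and PKM2 transcripts together, was at 6.31 to 9.65 CPM in PKM2 KO livers, below the 15.9 to 26.6 CPM of WT livers (log2 fold change -1.47, SE 0.232, edgeR adjusted p = 0.314). Summed over 7 hepatocyte markers, levels were 109500 to 121182 CPM in PKM2 KO livers and 74760 to 110269 CPM in WT livers, so each library carried its labelled tissue. The 12 pancreatic acinar markers summed to 34.4 to 62.1 CPM in PKM2 KO livers and to 3278, 9400 and 33.2 CPM in WT livers 1, 2 and 3. WT 1 and WT 2 therefore stand apart, and values with WT 3 left as the single WT liver are given beside the members with the smallest p. Whole-tissue RNA cannot separate fewer cells of a type from less RNA per cell.

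No chemokine or receptor transcript passed the genotype test. Of the 56 members, 27 had enough counts to be tested, 19 ligands and 8 receptors, and 0 had an adjusted p under 0.05 in edgeR's quasi-likelihood test, where 0.023% of all 13058 tested genes did (3 genes). DESeq2 and limma voom also called 0 members. At an unadjusted p under 0.05 there were 5 members, all ligands and all lower in PKM2 KO livers, against 4.37% of all tested genes on the lower side. The direction was uneven. The log2 fold change, PKM2 KO over WT, was below 0 for 24 of the 27 tested members (16 of 19 ligands and 8 of 8 receptors), where it was below 0 for 52.4% of all tested genes. The median log2 fold change was -0.37 over tested ligands and -0.41 over tested receptors, against -0.01 over all tested genes. Both rested partly on single livers. The ligand median was -0.61 without PKM2 KO 1, -0.20 without PKM2 KO 2, -0.23 without WT 1 and -0.22 without WT 3, and the receptor median was -0.25 without WT 3. Without WT 3, 19 of the 27 members tested then were below 0, and the receptors Cxcr3 and Cxcr6 were above it. The filter keeps a gene that is well counted in 3 livers, so a transcript can enter through the genotype where it is higher, and these counts and medians describe the tested members without supporting a change of the family.

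**Figure D1:**
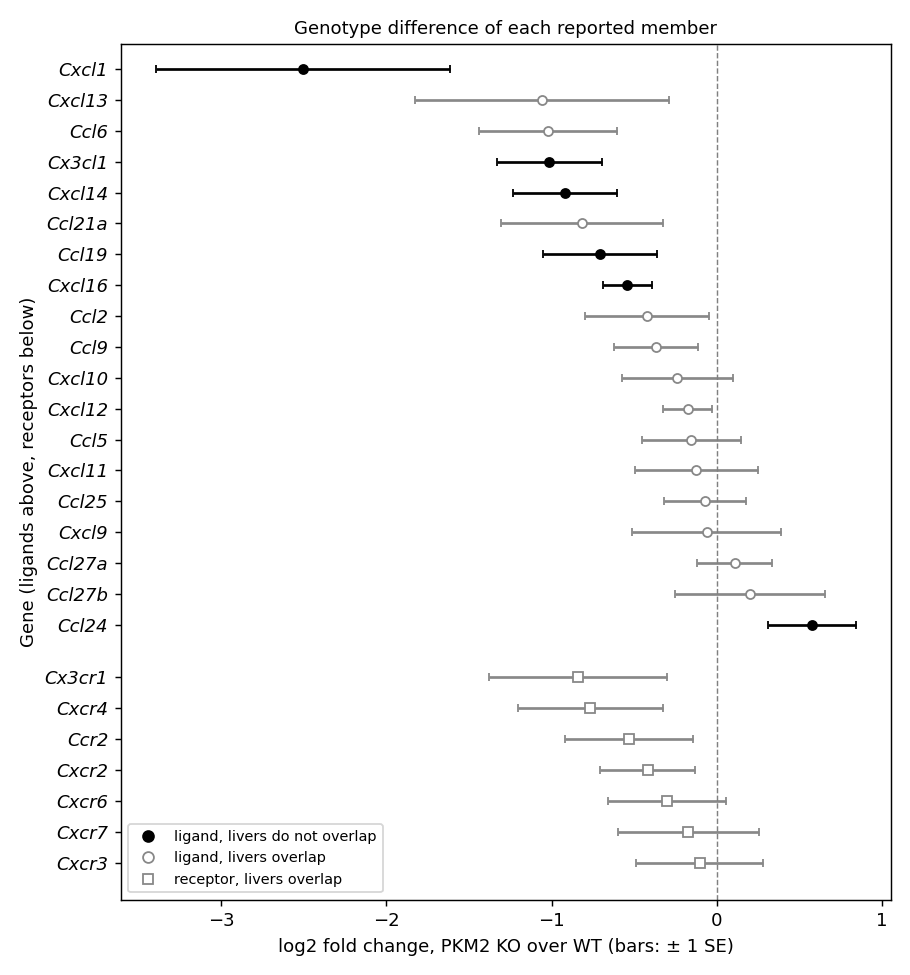
The log2 fold change, PKM2 KO over WT, of each tested ligand (circles, upper block) and reported receptor (squares, lower block) is plotted with bars of ± 1 SE. Filled symbols mark transcripts whose 3 PKM2 KO and 3 WT livers do not overlap, which are Cxcl1, Cx3cl1, Cxcl14, Ccl19 and Cxcl16 on the lower side and Ccl24 on the higher side.

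For 5 ligands every PKM2 KO liver lay below every WT liver, 18.5% of the 27 tested members, where 6.27% of all tested genes did so. They were Cxcl16, Cx3cl1, Cxcl14, Cxcl1 and Ccl19. For 1 ligand, Ccl24, every PKM2 KO liver lay above every WT liver, 3.70% of the tested members, where 5.8% of all tested genes did so. All 8 tested receptors overlapped between genotypes. A p that misses the threshold does not show that levels were equal in PKM2 KO and WT livers.

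Cxcl1 encodes a ligand of CXCR2 that draws neutrophils, and its level depended most on 1 liver. It stood at 3.21, 2.33 and 2.86 CPM in PKM2 KO livers 1, 2 and 3, against 3.97, 39.3 and 4.39 CPM in WT livers 1, 2 and 3. The WT 2 value was 9.89 times the lowest WT value, while the PKM2 KO livers differed by 1.37 times from lowest to highest. Its log2 fold change of -2.504 (SE 0.891, adjusted p = 0.641 in edgeR) ran from -2.949 without WT 1 to -0.58 without WT 2 and was -0.64 with WT 3 as the single WT liver. DESeq2 returned no adjusted p for Cxcl1. The 10 neutrophil markers listed together were also highest in WT 2, at a sum of 17.1 CPM. S100a8 (3.58 CPM) and S100a9 (5.36 CPM) made up much of that sum, while Fpr1, at 3.02 CPM, was lowest in WT 2 among WT livers. WT 2 also held the most pancreatic acinar transcripts, at a sum of 9400 CPM. The part of neutrophils or of pancreatic tissue in the Cxcl1 value was not tested.

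The other ligands of the same group were nearly silent. Cxcl2, the neighbouring coding gene of Cxcl1 in the RefSeq gene order, had 4 expected counts over the PKM2 KO livers and 2 over the WT livers. Cxcl3 had 0 in every liver, which allows up to 0.0157 CPM over the 6 libraries. Cxcl5 had 1 count over the PKM2 KO livers and 9 over the WT livers, 7 of them in WT 2. Cxcl15, a lung chemokine in mice, had 1 count in each genotype. WT 2, with 1261 expected counts of Cxcl1, had 0 of Cxcl2 and 0 of Cxcl3.

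The promoters of these genes are shown because they share an NF-kB-type motif while their transcripts differed so much in WT 2. Each window runs from 250 bases before the transcription start to 50 after it, from RefSeq on GRCm38.p6, a later build than the mm9 named for the counts. The windows are chr5:90890995-90891294 (+ strand), chr5:90903649-90903948 (+ strand) and chr5:90785851-90786150 (+ strand). Capitals mark the NF-kB core GGAATTTCC, searched on both strands.
Cxcl1: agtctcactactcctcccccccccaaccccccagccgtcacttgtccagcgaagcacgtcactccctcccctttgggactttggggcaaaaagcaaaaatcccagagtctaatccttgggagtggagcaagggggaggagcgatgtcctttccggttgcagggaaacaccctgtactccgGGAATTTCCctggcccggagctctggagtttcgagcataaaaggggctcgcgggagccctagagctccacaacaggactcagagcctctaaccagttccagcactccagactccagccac
Cxcl2: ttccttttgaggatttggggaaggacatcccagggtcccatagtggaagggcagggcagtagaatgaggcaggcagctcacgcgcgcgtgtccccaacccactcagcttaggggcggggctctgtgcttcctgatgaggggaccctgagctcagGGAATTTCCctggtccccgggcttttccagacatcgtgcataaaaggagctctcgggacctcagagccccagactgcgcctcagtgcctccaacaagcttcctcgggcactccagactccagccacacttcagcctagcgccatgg
Cxcl3: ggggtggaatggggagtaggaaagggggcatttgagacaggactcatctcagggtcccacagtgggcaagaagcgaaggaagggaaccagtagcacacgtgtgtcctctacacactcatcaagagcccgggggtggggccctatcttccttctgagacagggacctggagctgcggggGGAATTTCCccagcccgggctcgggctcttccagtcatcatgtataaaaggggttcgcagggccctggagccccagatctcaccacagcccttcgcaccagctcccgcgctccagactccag
The motif began 70 bases before the start in Cxcl1, 96 in Cxcl2 and 72 in Cxcl3. It was found in 0.317% of all 32851 promoter windows and in 5 of the 40 members with a window, the others being Cxcl10 and Ccr3. A match describes the letters and not binding of a factor.

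Cxcl16 and Cx3cl1 encode the transmembrane chemokines, which sit on the cell surface and are shed by the proteases ADAM10 and ADAM17. Cxcl16 attracts CXCR6-bearing T and NKT cells and had the smallest p of the family. In PKM2 KO livers it stood at 7.75, 6.31 and 7.11 CPM and in WT livers at 11.8, 9.15 and 9.91 CPM. The genotypes did not overlap, and the log2 fold change was -0.54 (SE 0.148, adjusted p = 0.566 in edgeR). Leaving out any single liver kept it between -0.62 and -0.43, and it was -0.48 with WT 3 as the single WT liver. Cx3cl1 stood at 0.517, 0.560 and 0.669 CPM in PKM2 KO livers and at 0.787, 1.31 and 1.43 CPM in WT livers (log2 fold change -1.02, SE 0.318, adjusted p = 0.587 in edgeR). WT 1 was the WT liver nearest to PKM2 KO, the value was -1.22 without it and -0.84 without WT 3, and it was -1.29 with WT 3 as the single WT liver. The shedding proteases overlapped between genotypes, with Adam10 at 28.6 to 30.3 CPM in PKM2 KO and 28.2 to 32.4 CPM in WT livers, and Adam17 at 18.1 to 21.4 CPM in PKM2 KO and 15.2 to 21.9 CPM in WT livers.

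Cxcl14, a conserved chemokine of epithelia, stood at 1.72, 1.74 and 1.22 CPM in PKM2 KO livers and at 1.93, 4.08 and 2.82 CPM in WT livers. The WT 1 value lay close to the PKM2 KO livers and WT 2 was highest. The log2 fold change was -0.92 (SE 0.314, adjusted p = 0.631 in edgeR), and it was -1.13 without WT 1, -0.61 without WT 2 and -0.85 with WT 3 as the single WT liver.

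Ccl6 and Ccl9 are neighbouring genes of a rodent group of CC ligands for CCR1, made by myeloid cells. Ccl6 stood at 6.41, 4.70 and 4.35 CPM in PKM2 KO livers and at 5.54, 17.9 and 7.88 CPM in WT livers. WT 2 was again the high liver, PKM2 KO 1 lay above WT 1, and the log2 fold change of -1.02 (SE 0.418, adjusted p = 0.676 in edgeR) was -1.31 without WT 1, -0.38 without WT 2 and -0.61 with WT 3 as the single WT liver. Ccl9 stood at 47.2, 42.4 and 38.8 CPM in PKM2 KO livers and at 44.8, 40.7 and 79.99 CPM in WT livers. Here WT 3, not WT 2, was the high liver, and the log2 fold change of -0.37 was 0.01 without it and -0.90 with it as the single WT liver. Some reads of this pair were divided by RSEM, as fractional counts show, and such values carry that uncertainty. The Ccl6 counts were whole in every WT liver, with 575 in WT 2.

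Ccl19, Ccl21a and Cxcl13 encode homeostatic ligands of lymphoid tissue. CCL19 and CCL21 bring CCR7-bearing T cells and dendritic cells together. Ccl19 stood at 1.31, 0.591 and 1.06 CPM in PKM2 KO livers and at 1.36, 1.43 and 2.03 CPM in WT livers. PKM2 KO 1 and WT 1 nearly touched, and the log2 fold change was -0.71 (SE 0.346, adjusted p = 0.732 in edgeR). It was -0.95 without PKM2 KO 1, -0.44 without PKM2 KO 2 and -1.04 with WT 3 as the single WT liver. Ccl21a stood at 1.17, 0.435 and 0.304 CPM in PKM2 KO livers and at 1.001, 1.03 and 1.30 CPM in WT livers, with a log2 fold change of -0.81 (SE 0.489, adjusted p = 0.776 in edgeR) that was -1.57 without PKM2 KO 1, -0.47 without PKM2 KO 3 and -1.03 with WT 3 as the single WT liver. Its near-identical copy Ccl21c had 15.4 expected counts over the PKM2 KO livers and 23.6 over the WT livers, and Ccl21b had 0 in every liver. Reads can be divided among these copies.

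Cxcl13 attracts CXCR5-bearing B cells, and its range within WT was 7.98 times. In PKM2 KO livers it lay at 1.52, 1.43 and 3.13 CPM and in WT livers at 9.72, 1.87 and 1.22 CPM. WT 1 was the high liver, and WT 3 was the lowest of all 6. The log2 fold change was -1.06 (SE 0.769, adjusted p = 0.815 in edgeR), 0.40 without WT 1 and 0.74 with WT 3 as the single WT liver.

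Cxcl9, Cxcl10 and Cxcl11 encode the interferon-induced ligands of CXCR3, which draw activated T cells and NK cells. Cxcl9 stood at 22.3, 7.99 and 9.64 CPM in PKM2 KO livers and at 11.6, 8.72 and 21.1 CPM in WT livers. Each genotype had 1 high liver, PKM2 KO 1 and WT 3, and the log2 fold change was -0.06 (SE 0.453). Cxcl10 was also highest in these livers, with WT 1 close behind, at 2.79, 1.52 and 1.61 CPM in PKM2 KO and 2.57, 1.53 and 2.87 CPM in WT livers. Cxcl11 was at 1.24, 1.15 and 1.03 CPM in PKM2 KO and 1.04, 0.747 and 1.92 CPM in WT livers. WT 2, the liver with the most Cxcl1, had the lowest Cxcl11 of all 6 and the lowest Cxcl9 and Cxcl10 among WT livers.

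The Cxcl10 promoter is shown for its interferon-type element. Capitals mark GAAANNGAA, searched on both strands, which began 213 bases before the start in the window chr5:92348840-92349139 (- strand) of GRCm38.p6.
Cxcl10: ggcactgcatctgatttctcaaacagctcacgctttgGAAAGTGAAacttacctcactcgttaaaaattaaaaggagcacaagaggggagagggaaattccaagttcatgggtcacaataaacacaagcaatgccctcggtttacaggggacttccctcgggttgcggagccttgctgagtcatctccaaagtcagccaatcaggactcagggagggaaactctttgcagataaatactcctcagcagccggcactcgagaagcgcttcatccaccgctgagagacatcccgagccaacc
This pattern was in 8.56% of all windows and in 8 of the 40 members with a window, Ccl1, Ccl3, Ccl19, Ccr2, Cxcl9, Cxcl10, Cxcl14 and Cxcr1. Of the 5 that were tested, Ccl19 and Cxcl14 had every PKM2 KO liver below every WT liver, and Ccr2, Cxcl9 and Cxcl10 overlapped. Over all tested genes 6.27% lay lower without overlap and 5.8% higher. A link between the pattern and genotype was not tested, and 5 genes are too few to show one.

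Cxcl12, the constant ligand of CXCR4 and CXCR7 that holds haematopoietic cells in their niches, stood at 279, 257 and 212 CPM in PKM2 KO livers and at 257, 309 and 279 CPM in WT livers. The groups overlapped and the log2 fold change was -0.18 (SE 0.148, adjusted p = 0.848 in edgeR). Divided by merged exon length, Cxcl12 was at 34.8 CPM per kb in PKM2 KO and 39.4 CPM per kb in WT livers, the highest of the 19 tested ligands in both genotypes. Ccl9 was next, at 14.2 CPM per kb in PKM2 KO and 18.4 CPM per kb in WT livers. Cxcl1 ranked 5 in PKM2 KO, at 2.94 CPM per kb, and 3 in WT, at 16.6 CPM per kb, where WT 2 set the mean. Exon lengths came from GENCODE M21 on GRCm38 and may differ from those of the authors' annotation.

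Ccl24, the eotaxin that attracts eosinophils through CCR3, was the 1 ligand with all PKM2 KO livers on the higher side. In PKM2 KO livers it stood at 1.52, 1.06 and 1.09 CPM and in WT livers at 0.858, 0.872 and 0.731 CPM, a log2 fold change of 0.57 (SE 0.266, adjusted p = 0.718 in edgeR). PKM2 KO 1 was the highest liver, and without it the log2 fold change was 0.40. It was 0.67 without PKM2 KO 2 and 0.74 with WT 3 as the single WT liver. The other eotaxins were low, with 9 expected counts of Ccl11 over the PKM2 KO livers and 13 over the WT livers, and 0 of Ccl26 in every liver.

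The remaining tested ligands overlapped and had log2 fold changes from -0.42 to 0.20. Ccl2, the monocyte attractant that binds CCR2, was at 0.517, 0.249 and 0.334 CPM in PKM2 KO and 0.429, 0.436 and 0.596 CPM in WT livers. Ccl5, a T cell chemokine, was at 1.45, 0.871 and 0.882 CPM in PKM2 KO and 1.07, 1.09 and 1.38 CPM in WT livers. Ccl25, the ligand of CCR9, was at 2.27, 2.77 and 2.71 CPM in PKM2 KO and 2.40, 3.64 and 2.11 CPM in WT livers. For all 3 the groups interleave, and PKM2 KO 1 held the highest Ccl5 value. Ccl27a, a ligand of CCR10, was at 4.65, 3.27 and 4.13 CPM in PKM2 KO and 4.25, 2.80 and 4.11 CPM in WT livers. Its copy Ccl27b, with which it can share reads, was at 0.310, 0.342 and 0.243 CPM in PKM2 KO and 0.357, 0.125 and 0.298 CPM in WT livers.

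**Figure D2:**
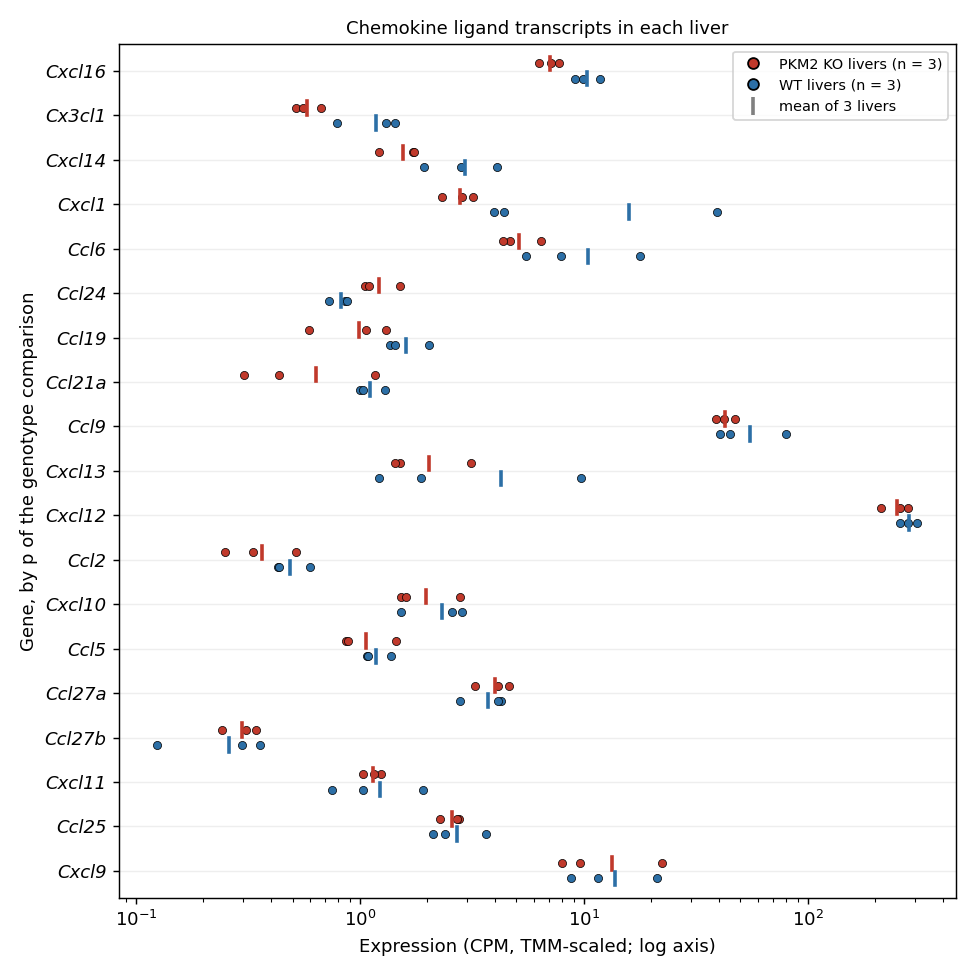
Each point is the level of 1 ligand in 1 liver in CPM on a log axis, with PKM2 KO livers above WT livers in each row, genes ordered by p and vertical bars at the mean of 3 livers. Cxcl1 in WT 2 at 39.3 CPM and Cxcl13 in WT 1 at 9.72 CPM stand far from the other livers, while Cxcl16 shows separated groups with little spread.

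A further 18 ligands had too few counts to be tested, with at most 15 expected counts in any liver, and 5 of them (Ccl1, Ccl21b, Ccl26, Cxcl3 and Cxcl17) had 0 in all 6. Ccl4, a macrophage and NK cell product, had 1, 2 and 1 counts in PKM2 KO livers and 2, 9 and 6 in WT livers. Its relative Ccl3 had 4 counts over the PKM2 KO livers and 10 over the WT livers. Ccl22, a dendritic cell chemokine for CCR4, had 11 over the PKM2 KO livers and 25 over the WT livers, 15 of them in WT 3. Ccl8, a monocyte chemokine, had 10 over the PKM2 KO livers and 21 over the WT livers. The other 7, Ccl7, Ccl11, Ccl12, Ccl17, Ccl20, Cxcl2 and Cxcl15, each had at most 10 counts in any liver, and Ccl21c and Cxcl5 have been described above. These depths do not allow a comparison between genotypes.

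Receptor transcripts were scarce in all livers. The 8 tested receptors were each below 10 CPM in every liver, and all 19 summed to 12.9, 9.61 and 10.5 CPM in PKM2 KO livers and 10.3, 17.7 and 16.1 CPM in WT livers. WT 1 lay within the PKM2 KO range and WT 2 and WT 3 above it. Per kb of exon, Cxcr2 was at 0.444 CPM per kb in PKM2 KO and 0.592 CPM per kb in WT livers, and Cx3cr1 at 0.0924 CPM per kb in PKM2 KO and 0.163 CPM per kb in WT livers.

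Cxcr4, the CXCL12 receptor of many leukocytes, had the smallest p among receptors. In PKM2 KO livers it lay at 0.586, 0.373 and 0.304 CPM and in WT livers at 0.572, 0.467 and 1.08 CPM. WT 3 was the high liver, and the log2 fold change of -0.76 (SE 0.438, adjusted p = 0.763 in edgeR) was -0.30 without it, -1.06 without PKM2 KO 1 and -1.36 with WT 3 as the single WT liver. Cxcr7, an atypical receptor that removes CXCL12 and is now named Ackr3, stood at 0.862, 0.560 and 0.517 CPM in PKM2 KO livers and at 0.787, 1.03 and 0.379 CPM in WT livers. WT 3, the highest liver for Cxcr4, was the lowest for Cxcr7, whose log2 fold change of -0.17 was 0.76 with WT 3 alone.

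Cx3cr1, the fractalkine receptor of monocytes and tissue macrophages, stood at 0.448, 0.435 and 0.365 CPM in PKM2 KO livers and at 0.215, 0.965 and 1.03 CPM in WT livers. WT 1 lay below all PKM2 KO livers and the other WT livers above them. The log2 fold change was -0.84 (SE 0.540, adjusted p = 0.790 in edgeR), -1.25 without WT 1, -0.51 without WT 3 and -1.30 with WT 3 as the single WT liver. For its ligand Cx3cl1, WT 1 was also the lowest WT liver.

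Cxcr2, the neutrophil receptor for CXCL1, stood at 1.21, 1.09 and 1.76 CPM in PKM2 KO livers and at 1.64, 1.49 and 2.27 CPM in WT livers (log2 fold change -0.42, SE 0.287, adjusted p = 0.806 in edgeR). The value was -0.65 without PKM2 KO 3, -0.21 without WT 3 and -0.74 with WT 3 as the single WT liver. WT 2, with the most Cxcl1, had the least Cxcr2 of the WT livers, with WT 1 little above it. Cxcr2 counts were fractional in every liver, so RSEM divided some of its reads. Its relative Cxcr1 had 2 counts over the PKM2 KO livers and 6 over the WT livers, 4 of them in WT 2.

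Some reads of Ccr2 were divided by RSEM, as its fractional counts show. Ccr2, which brings monocytes into inflamed liver, stood at 1.62, 0.777 and 1.003 CPM in PKM2 KO livers and at 1.14, 1.37 and 2.35 CPM in WT livers (log2 fold change -0.53, SE 0.388, adjusted p = 0.815 in edgeR). It was -0.86 without PKM2 KO 1, -0.15 without WT 3 and -1.05 with WT 3 as the single WT liver. WT 3 was its high liver, and PKM2 KO 1 lay above WT 1 and WT 2.

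The lymphocyte receptors Cxcr3 and Cxcr6 overlapped widely. Cxcr3, the receptor for CXCL9, CXCL10 and CXCL11, stood at 0.724, 0.373 and 0.517 CPM in PKM2 KO livers and at 0.393, 0.560 and 0.758 CPM in WT livers. Its highest livers, WT 3 and PKM2 KO 1, were also the highest for Cxcl9. Cxcr6, the CXCL16 receptor of liver NKT and memory T cells, stood at 0.896, 0.591 and 0.669 CPM in PKM2 KO livers and at 0.644, 0.716 and 1.27 CPM in WT livers.

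**Figure D3:**
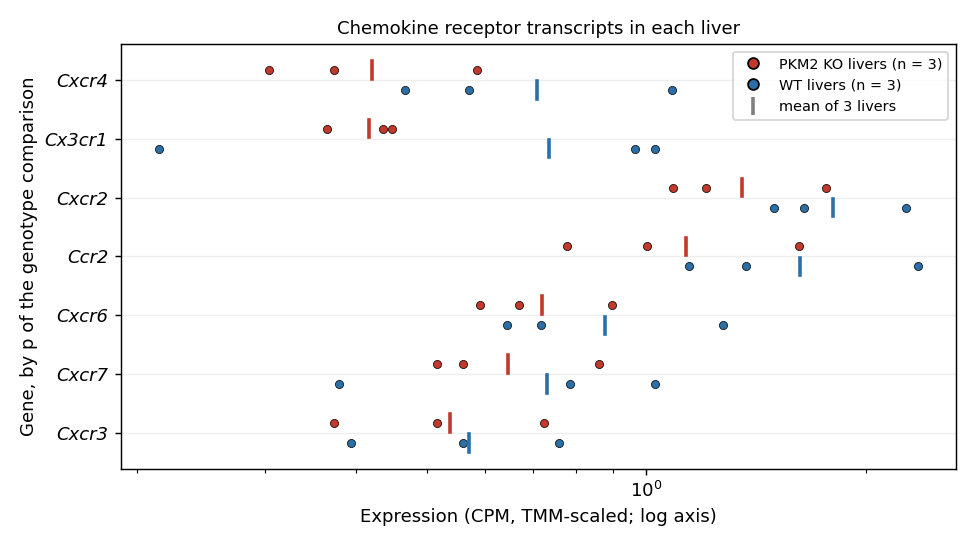
Each point is the level of 1 reported receptor in 1 liver in CPM on a log axis, with PKM2 KO livers above WT livers in each row and vertical bars at the mean of 3 livers. The groups overlap in every row, and single WT livers set the upper end, such as Cxcr7 at 1.03 CPM in WT 2 and Cxcr4 at 1.08 CPM in WT 3.

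The other 11 receptors had at most 24 expected counts in any liver and were not tested. Ccr7, the CCL19 and CCL21 receptor, had 7, 7 and 9 counts in PKM2 KO livers and 11, 9 and 24 in WT livers. Cxcr5, the chemokine receptor of B cells for CXCL13, had 8, 8 and 2 in PKM2 KO livers and 4, 7 and 14 in WT livers. Ccr1, a myeloid receptor, had 9 counts over the PKM2 KO livers and 19 over the WT livers, and Ccr9, a gut-homing receptor, had 21 over the PKM2 KO livers and 23 over the WT livers. Ccr4, a chemokine receptor of T cells for CCL17 and CCL22, had 20.6 over the PKM2 KO livers and 19.8 over the WT livers. Cxcr1 has been described above. The remaining 5, Ccr3, Ccr6, Ccr8, Ccr10 and Ccr1l1, had at most 6 counts in any liver.

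Across the tested members the highest value fell most often in WT 3. PKM2 KO 1 was the highest liver for 4 of the 27, PKM2 KO 2 and PKM2 KO 3 for 0, WT 1 for 3, WT 2 for 7 and WT 3 for 13. Over all tested genes WT 3 was the highest liver for 21.8% and PKM2 KO 2 for 12.2%. The lowest value fell in PKM2 KO 2 for 11 of the 27 and in PKM2 KO 3 for 6, where PKM2 KO 2 was lowest for 11.8% of all tested genes. Of the 8 tested receptors, 6 were highest in WT 3 and 2 in WT 2. WT 3 held few pancreatic transcripts. The median ratio of the highest to the lowest liver was 1.47 within PKM2 KO and 1.97 within WT for the tested members, against 1.21 within PKM2 KO and 1.36 within WT for all tested genes, and low counts widen such ratios.

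**Figure D4:**
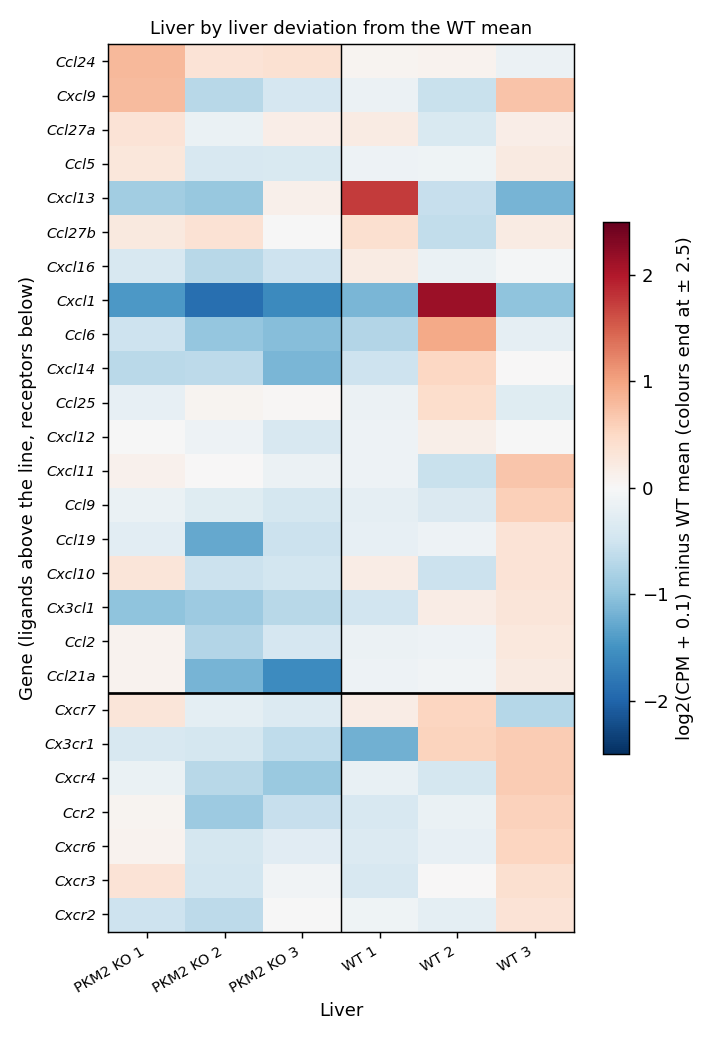
The colour gives log2(CPM + 0.1) of each tested ligand and reported receptor in each liver minus the mean of the WT livers, red above and blue below, with ligands above the line and receptors below it. Cxcl1 and Ccl6 are red in WT 2, Cxcl13 in WT 1 and 6 receptors are highest in WT 3, while PKM2 KO 2 and PKM2 KO 3 are mostly blue.

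Other genes of the pathway were taken from a list of 61, and none passed. Of these genes 53 were tested, 15 with a log2 fold change above 0 and 38 below 0 (52.4% of all tested genes), with a median of -0.14. In edgeR 0 passed, and 0 passed with DESeq2 or limma voom. At an unadjusted p under 0.05 in edgeR there were 6, against 4.37% of all tested genes on the lower side and 2.87% on the higher side. For 8 of the 53 all PKM2 KO livers lay below all WT livers (6.27% of all tested genes), and for 0 above (5.8% of all tested genes). Among 17 tested inducers of chemokine transcription, 15 were below 0, where 52.4% of all tested genes were. Myd88, the adaptor of Toll-like and interleukin-1 receptors, stood at 11.7, 12.7 and 13.3 CPM in PKM2 KO livers and at 16.4, 29.0 and 18.3 CPM in WT livers (log2 fold change -0.76, SE 0.215, adjusted p = 0.566 in edgeR). Nfkb2, an NF-kB subunit, stood at 7.03, 5.29 and 6.57 CPM in PKM2 KO livers and at 7.62, 8.72 and 9.29 CPM in WT livers. The interleukin-1 receptor gene Il1r1, named here for its values and not by the naming rule, stood at 14.3, 21.1 and 27.1 CPM in PKM2 KO livers and at 16.4, 98.5 and 32.6 CPM in WT livers, so WT 2 was its high liver as it was for Cxcl1.

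Among 19 tested genes of receptor signalling, 13 were below 0, where 52.4% of all tested genes were. Pik3r5, a regulatory subunit of the phosphoinositide kinase that acts below chemokine receptors, was at 0.827, 0.808 and 0.638 CPM in PKM2 KO and 1.14, 1.90 and 1.73 CPM in WT livers. Was, a regulator of actin in leukocytes, was at 1.31, 0.964 and 1.28 CPM in PKM2 KO and 1.47, 2.18 and 1.90 CPM in WT livers. Among 8 tested genes of chemokine processing, 5 were below 0. The metalloprotease gene Mmp9 was at 0.345, 0.466 and 0.122 CPM in PKM2 KO and 0.858, 0.965 and 1.06 CPM in WT livers, and Mmp2 was at 2.17, 1.59 and 0.821 CPM in PKM2 KO and 1.14, 0.903 and 0.866 CPM in WT livers. Of 9 tested chemokine and related genes outside the name rule, Rarres2 and Cmklr1 among them, 5 were below 0 and each overlapped between genotypes. The scavenging receptor gene Ccrl1, now Ackr4, had a log2 fold change of 0.47 and the platelet chemokine gene Pf4 of -0.59.

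Markers of leukocytes that carry these receptors were mostly lower in PKM2 KO livers, none passed, and their part in the chemokine and receptor values was not tested. Over all tested genes, 52.4% were below 0. The 12 Kupffer cell and macrophage markers summed to 336.5 to 392.1 CPM in PKM2 KO livers and 421 to 458 CPM in WT livers, with 11 of 12 below 0. For 4 of the 12 (C1qa, C1qb, C1qc and Cd68) all PKM2 KO livers lay below all WT livers (6.27% of all tested genes). The others overlapped, at log2 fold changes of -1.33 (Marco), -0.43 (Emr1), -0.17 (Timd4), -0.15 (Csf1r), -0.12 (Clec4f), -0.11 (Vsig4), -0.05 (Cd5l) and 0.04 (Cd163). The 9 monocyte and recruited macrophage markers in the table summed to 47.7 to 56.8 CPM in PKM2 KO and 65.7 to 83.9 CPM in WT livers. Of the 8 tested, 6 were below 0, and Ly6c2 (log2 fold change 0.48) and S100a4 (0.18) were above it. Without Lyz2, the most abundant of the 9 markers, the other 8 summed to 8.33 to 12.4 CPM in PKM2 KO and 9.44 to 26.1 CPM in WT livers, which overlap. The 10 neutrophil markers summed to 4.26 to 5.45 CPM in PKM2 KO and 6.79 to 17.1 CPM in WT livers, highest in WT 2, and all 5 tested were below 0. The full sums of these 3 lists did not overlap between genotypes. Mpo and Ngp, granule genes of immature neutrophils, were at 0 in every PKM2 KO liver and at most 0.0812 CPM in WT livers, and were named for their values. Elane, another granule gene, stood at 0, 0.0311 and 0.122 CPM in PKM2 KO livers and at 0, 0.187 and 0.0812 CPM in WT livers. Camp reached 0.0345 CPM in 1 PKM2 KO liver, against a highest WT value of 0.0358 CPM. The 2 markers with the smallest p were C1qa (log2 fold change -0.59) and C1qb (-0.49) for Kupffer cells and macrophages, and Itgam (-1.51) and Lyz2 (-0.48) for monocytes and recruited macrophages. They were Mmp9 (-1.62) and Fpr1 (-0.68) for neutrophils, and Lck (-1.10) and Gzma (-2.04) for T and NK cells. Gzma rested on few reads, at 0.103, 0.0311 and 0.122 CPM in PKM2 KO and 0.357, 0.436 and 0.298 CPM in WT livers. The 15 T and NK cell markers summed to 19.2 to 22.8 CPM in PKM2 KO and 21.6 to 25.3 CPM in WT livers, which overlap, and Zap70 made up 12.5 to 17.8 CPM of each sum. The other 14 summed to 7.41, 5.504 and 5.08 CPM in PKM2 KO and 7.72, 9.06 and 9.15 CPM in WT livers, without overlap. Of the 10 tested, 8 were below 0 (52.4% of all tested genes), and Cd8a (0.73) and Zap70 (0.01) were above it. For 5 all PKM2 KO livers lay below all WT livers (6.27% of all tested genes). The untested Cd3d, Cd8b1, Gzmb and Prf1 had higher means in PKM2 KO livers, and Ncr1 had a higher mean in WT livers. B and plasma cell markers summed to 245 to 303 CPM in PKM2 KO and 244 to 311 CPM in WT livers, with 4 of 6 tested below 0. Nearly all of this was Sdc1, which epithelia also express, at 229 to 283 CPM in PKM2 KO and 231 to 285 CPM in WT livers. The other 6 summed to 9.79 to 20.5 CPM in PKM2 KO and 12.5 to 26.4 CPM in WT livers, which overlap. Dendritic cell markers summed to 4.47 to 5.27 CPM in PKM2 KO and 4.14 to 8.42 CPM in WT livers. The smallest p values of these lists were those of Cd79b (-0.61) for B cells, and of Clec9a (-1.06) and Itgae (-0.57) for dendritic cells.

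Markers of tissue cells that can make chemokines gave no call either. Those of sinusoidal and vascular endothelium summed to 270 to 285 CPM in PKM2 KO and 239 to 283 CPM in WT livers, and 4 of 8 were below 0. Those of stellate cells and fibroblasts summed to 196 to 290 CPM in PKM2 KO and 186 to 274 CPM in WT livers. Of these 8 markers 5 were above 0, and Col1a1 (-0.39), Col1a2 (-0.21) and Col3a1 (-0.14) were below it. Bile duct markers summed to 28.6 to 34.1 CPM in PKM2 KO and 35.6 to 51.3 CPM in WT livers, without overlap. Of these markers 6 of 6 tested were below 0, where 52.4% of all tested genes were. Krt19 stood at 0.724, 1.12 and 0.882 CPM in PKM2 KO livers and at 3.47, 5.08 and 1.14 CPM in WT livers. Its high livers, WT 1 and WT 2, were those with many pancreatic transcripts. Epcam was high only in WT 2, at 4.83 CPM, while Sox9 was highest in WT 3, at 6.17 CPM. The part of pancreatic tissue in these values was not tested. Adipocyte markers summed to 0.529 to 6.65 CPM in PKM2 KO and 0.0812 to 7.01 CPM in WT livers. The 2 smallest p values were those of Pecam1 (-0.30) and Tek (0.29) for endothelium, Reln (0.45) and Dcn (0.15) for stellate cells, Cd24a (-0.83) and Krt19 (-1.82) for bile duct, Ttr (0.46) and Cyp2e1 (0.55) for hepatocytes, Ctrb1 (-7.23) and Try4 (-7.48) for acinar cells, and Cfd (-0.65) and Plin1 (-0.46) for adipocytes. Of the 7 hepatocyte markers 6 were above 0, and Apoa1 (-0.32) was below it.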

How the data were processed

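Polyadenylated RNA from frozen, ground whole liver was made into TruSeq libraries, per the labels' protocols. The authors deposited 1 table of RSEM expected counts per gene and liver, unscaled between libraries. Bowtie 1.0.1, RSEM 1.2.12 and genome build mm9 are named per the submitters' processing notes. The annotation and the strandedness of counting are not given in the sources used here. Reads that match several genes were divided by RSEM, and 21.2% to 23.8% of values per library were not whole (tolerance 0).

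Expected counts were rounded and analysed in R 4.3.3 with edgeR 4.0.16: filterByExpr at its defaults (13058 genes kept), TMM scaling, the quasi-likelihood F test with genotype as the only term over all 6 livers, and Benjamini-Hochberg adjustment over all tested genes at 0.05. Fold changes are PKM2 KO over WT with an approximate SE, obtained as the size of the log2 value over the root of its F statistic. DESeq2 1.42.0, limma 3.58.1 (voom), other scalings, other filters, a replicate block and each liver left out were alternatives. Limits for a count of 0 use 3 counts and cover counting error only. The most similar libraries, PKM2 KO 2 and PKM2 KO 3, differed by a chi-square of 38.7 per gene, so none was treated as a repeat. The test was also run on simulated counts over 12932 genes. It called 57.1% of 98 genes simulated with log2 fold change 1 and 91.8% of 98 simulated with 2, with 7 false calls. These shares were not worked out for the members. In the measured livers Cxcl1, at a log2 fold change of -2.504, had an adjusted p of 0.641 in edgeR. Cx3cl1, at -1.015, had an adjusted p of 0.587 in edgeR. How often a change would be called at the levels and liver spread of the members was not tested.

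The members, gene lists, motifs and tests were chosen with earlier results of these data known. The rule for named genes gave every tested member its values per liver and took the 8 ligands and 5 receptors with the smallest p, the members without overlap, the 5 with the widest WT range and the 2 smallest p of each companion and marker list. A receptor among the tested members and a B cell marker are counted in the totals but not reported here. Of the 56 members, 55 matched a coding gene in RefSeq by current symbol and 40 had a promoter window. Motif searches and plots used Python 3.11.15 and matplotlib 3.10.9.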

Additional observations from a re-analysis of the deposited data

How the results depend on the processing

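No member and no companion gene passed under any alternative with a test. Over the whole table the 3 calls became 5 without a filter, 97 with DESeq2, 5 with limma voom and 7 with the replicate block, and 3 to 51 with a liver left out (51 without WT 1 and 51 without WT 3). The correlations of deviations between same-numbered livers were -0.00612, 0.0428 and -0.113. With 3 livers per genotype they cannot settle whether the replicate numbers pair the livers. The block changed no call among members. The 5 ligands on the lower side without overlap (Cxcl16, Cx3cl1, Cxcl14, Cxcl1 and Ccl19) were the same under both other scalings. They also stayed apart with any single liver left out, when the count of such members was 5 to 12 (12 without PKM2 KO 1). Apart from small shifts in scaling, leaving out a liver can only keep or add such separation, so it is no check of these ligands. Without a filter there were 7, with Ccl4 and the receptor Ccr7 added, and the stricter filter removed Cx3cl1. The marker sums without their most abundant member were added after the values were seen. With WT 3 as the only WT liver, where 1 WT value makes separation easy, 22 members lay lower and 4 higher, and the medians were -0.64 for ligands and -0.82 for receptors. With 1 liver left out the medians ran from -0.61 to -0.20 for ligands and from -0.56 to -0.25 for receptors.

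Directions turned for 10 of the reported overlapping members when a liver was left out. The log2 fold change then ran from -0.22 to 0.20 for Ccl25, -0.058 to 0.24 for Ccl27a, -0.13 to 0.48 for Ccl27b, -0.54 to 0.0061 for Ccl9, -0.38 to 0.36 for Cxcl11, -1.52 to 0.40 for Cxcl13, -0.64 to 0.39 for Cxcl9, -0.36 to 0.17 for Cxcr3, -0.48 to 0.079 for Cxcr6 and -0.49 to 0.17 for Cxcr7. The cause was not tested. Depth left 18 of 37 ligands and 11 of 19 receptors untested.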
